A study of Apis cerana with 9 samples.

Results

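The proboscis transcriptome of *Apis cerana*, the Asian honey bee, was compared between pear pollen carriers and bees without a pollen load. The comparison was defined by the sample labels and used 6 of the 9 RNA-seq libraries of the series, 3 from pear pollen carriers (pear) and 3 from bees without pollen (non-pollen); the other 3, from rapeseed pollen carriers (rapeseed), entered only a direct contrast at the end. Every library was made from proboscis, and the labels give no treatment, age, colony, day or batch. Whether each of the 3 libraries per group stands for a bee, a pool or a colony is not stated, so the p-values below reflect the spread among these libraries, and that spread may be technical. Genes were kept when their FPKM (fragments per length of gene and size of library) reached 1 or more in 3 or more of the 6 libraries, a filter that 9081 of the 12757 listed genes passed.

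The proboscis is the sucking mouthpart of the bee. It carries cuticle, muscles that move its parts, and taste and touch neurons, and it takes up the nectar, water and jelly that workers pass on. In the head, the hypopharyngeal glands of young workers make the major royal jelly proteins that are fed to larvae and the queen. In workers that forage, the same glands make enzymes that split and oxidize nectar sugars. Pollen is carried home on the hind legs, and a pollen load therefore marks a returning forager, while a bee without pollen can have any role, foraging included.

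Library totals ranged from 43034759 to 64306245 counts for non-pollen and from 45447582 to 46167296 counts for pear. After scaling, replicates varied by 8.44% (common biological coefficient of variation), and no pair of replicates differed by as little as sampling noise. Homeotic genes were read for the labelled body region only, since they cannot show whether other tissue of the head was included. The products of Sex combs reduced (LOC108000243), proboscipedia (LOC108000244) and Deformed (LOC108000493) specify mouthparts in insects. The summed FPKM of these 3 genes, not scaled for composition, ranged from 95.15 to 97.45 in non-pollen and from 150.6 to 162.8 in pear. The genes of the abdomen, abdominal-A (LOC108000309) and Abdominal-B (LOC108000445), were at a mean FPKM of at most 0.022 in either group. In bulk tissue, fewer cells of a type and less RNA per cell cannot be told apart, which holds for every difference below.

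Of the 9081 tested genes, 4879 (53.7%) differed between pear and non-pollen at an adjusted p under 0.05 (edgeR's quasi-likelihood test with TMM scaling and Benjamini-Hochberg adjustment). These calls split into 2499 genes higher in pear (27.5% of those tested) and 2380 lower (26.2%). Most differences were small, and 3255 of the called genes (66.71%) changed by less than 1.5-fold. The large differences lay on one side. At a fold of at least 2, 578 genes were called (6.36%), 103 higher and 475 lower in pear. At a log2 difference of at least 2, 6 genes were higher and 185 lower, and at a log2 difference of at least 5, 1 was higher and 40 were lower. Directions are relative to the median gene, whose log2 fold change was -0.005 after TMM scaling and 0.53 when only library totals were used. With library totals the share of calls that were higher in pear went from 51.22% to 91.83%. A gene group whose direction turned with this choice is marked as such where it is described. Other KEGG pathways and GO terms were counted after TMM scaling only. Groups that were close to even after TMM scaling were mostly higher with library totals, as in the lysosome (72 higher and 6 lower of 91).

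**Figure D1:**
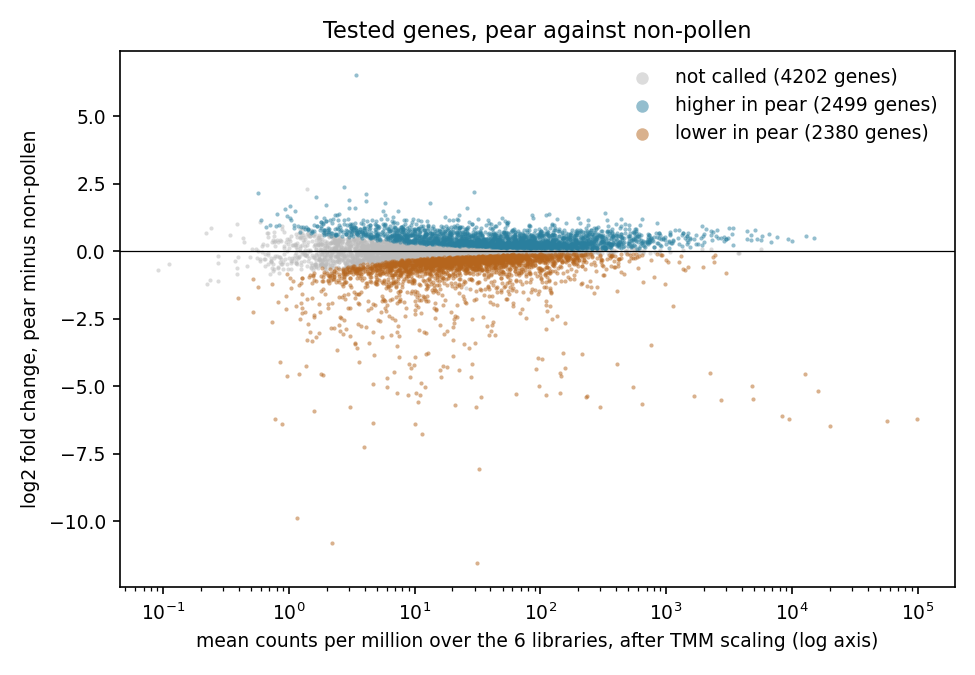
Log2 fold change of each tested gene (vertical axis, pear minus non-pollen) against its mean level in CPM over the 6 libraries (horizontal log axis); points are genes, grey where the test was not passed. Of the genes called higher in pear 103 reached a 2-fold change, while the 2380 called lower include a tail that reaches below -5 and holds the most abundant transcripts.

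The most abundant transcripts of the non-pollen libraries encoded royal jelly proteins. The 13 genes described as major royal jelly proteins held 32.25% ± 0.175 of all counts in non-pollen and 0.625% ± 0.13 in pear (SD, n = 3 each). This difference of -31.63 percentage points had p = 0.1 in an exact two-sided permutation test, the smallest value that 3 against 3 libraries allow. The major royal jelly protein 5-like gene LOC107997172 alone held 15.99%, 16.37% and 16.06% of the counts in the 3 non-pollen libraries and 0.236%, 0.321% and 0.37% in the 3 pear libraries. The 10 leading genes together held 39.13% ± 0.241 of the counts in non-pollen and 4.83% ± 0.185 in pear. In pear the leading gene was titin (LOC107993146), the spring protein of the sarcomere, with 2.13%, 2.13% and 2.11% of the counts against 1.03%, 1.04% and 1.04% in non-pollen. It was followed by muscle myosin heavy chain (LOC107999930), with a mean of 1.86% against 0.862%. Shares of counts are set by all genes of a library at once, so a share can rise where the scaled level does not.

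**Figure D2:**
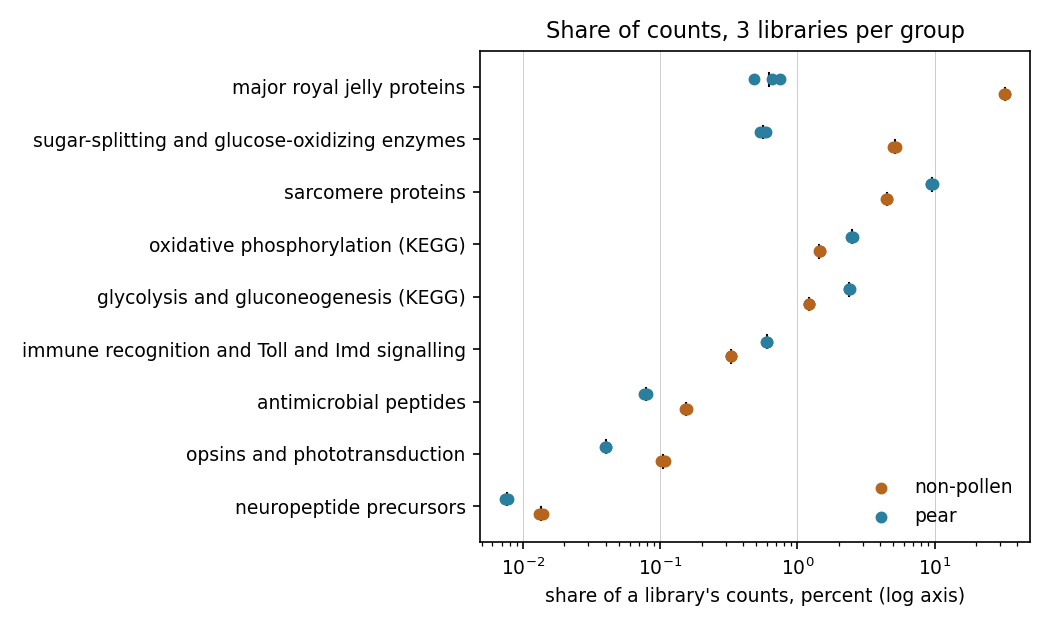
Share of each library's counts taken by 9 gene groups, in percent on a log axis; each point is 1 library (3 per group) and the black bar is the group mean. Royal jelly proteins fell from 32.25% in non-pollen to 0.625% in pear, while sarcomere proteins went from 4.45% to 9.47%.

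As a group, the royal jelly proteins had the lowest median of all gene groups examined. Of the 13 royal jelly genes 9 were tested; 7 were lower in pear, each by more than 2-fold, and 2 were higher, with a median log2 fold change of -6.10 against -0.005 over all tested genes. LOC107997172 had 196260, 194774 and 192669 CPM (counts scaled to library size, after TMM scaling) in the non-pollen libraries and 1938, 2670 and 3131 in the pear libraries. The log2 fold change was -6.24 (SE 0.132, edgeR adjusted p = 2.15e-18). The gene lies on the plus strand of scaffold NW_016019131.1 from 504001 to 516747, next to the major royal jelly protein 2-like gene LOC107997171 (495529 to 498959), which fell by 6.31 on the log2 scale. Downstream on the same strand lies LOC107997159 (539304 to 542573), also described as a major royal jelly protein, which rose by 0.37 (SE 0.0716, adjusted p = 2.04e-04). The other royal jelly gene that rose was LOC108003955, at 53.0, 50.1 and 43.2 CPM in non-pollen and 73.0, 78.0 and 79.0 CPM in pear. Neighbouring genes of this family therefore moved in opposite directions, although close copies can share reads and the counting of such reads is not given in the sources used here.

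Several enzymes, an inhibitor and a storage protein also fell. The glucose dehydrogenase-like gene LOC107997822 had 33207, 30076 and 31646 CPM in non-pollen and 748, 879 and 964 CPM in pear (log2 fold change -5.20, SE 0.0803). The alpha-glucosidase LOC107993622, an enzyme that splits sucrose, fell by 4.57 on the log2 scale. A chymotrypsin inhibitor-like gene, LOC107996293, went from 1084, 1022 and 1045 CPM to 25.5, 34.1 and 36.5 CPM. Hexamerin-like LOC107995056, of a family of storage proteins, went from a mean FPKM of 45.7 ± 2.2 to 2.07 ± 0.388 (SD, n = 3 each). The glucosylceramidase LOC108003239, of a family of lysosomal enzymes that cleave a sphingolipid, fell by 5.66 on the log2 scale. For each of these genes the groups did not overlap, as was the case for 5455 of all tested genes (60.07%).

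Within the group of sugar-splitting and glucose-oxidizing enzymes the abundant members and the rest parted. Of 18 tested members, 7 were lower and 9 higher in pear, and the 4 that changed by at least 2-fold were all lower. Their share of counts went from 5.11% ± 0.14 to 0.565% ± 0.0265, while the median log2 fold change of the members was 0.37. Among the members that rose was trehalase (LOC107992457), which splits trehalose, the blood sugar of insects. It had 429, 432 and 441 CPM in non-pollen and 702, 716 and 749 CPM in pear (log2 fold change 0.74, SE 0.0369, adjusted p = 2.26e-12).

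The largest falls also held genes of other kinds. The largest under the naming rule was FAM71B-like LOC107993596, at 65.6, 59.6 and 67.9 CPM in non-pollen and 0.145, 0.254 and 0.312 CPM in pear (log2 fold change -8.07, SE 0.147, adjusted p = 1.9e-19). The chorion peroxidase LOC107998613 had 8.02, 8.27 and 7.12 CPM in non-pollen, and counts were seen in only 1 pear library, at 0.147 CPM. Phospholipase B1-like LOC107999468, a lipid-cleaving enzyme, went from 59.2, 61.8 and 58.9 CPM to 0.705, 1.47 and 1.1 CPM. The venom acid phosphatase-like gene LOC108003353, chosen after its values were seen, went from 453, 440 and 449 CPM to 10.1, 11.2 and 10.2 CPM. The 15 largest falls under the rule ran from -8.07 to -5.50 on the log2 scale, and the 15 largest rises from 1.21 to 1.89.

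The machinery that carries proteins into the secretory pathway was lower in pear. Of 26 tested genes of KEGG protein export, 18 fell and 2 rose (median log2 fold change -0.39). By at least 2-fold, 3 of them fell and 1 rose, the rise being 1.89 on the log2 scale. Of 141 genes of protein processing in the endoplasmic reticulum (ER) 68 fell and 29 rose (median -0.14). The signal sequence of a new chain is taken up at the Sec61 channel with its helpers. The translocon-associated protein alpha, LOC108003753, had 97.9, 96.6 and 94.7 CPM in non-pollen and 26.6, 25.1 and 24.8 CPM in pear (log2 fold change -1.92, SE 0.0526). The translocating chain-associated protein LOC108003005 went from 173, 176 and 176 CPM to 49.4, 51.4 and 44.8 CPM. Sec61 beta (LOC107998143) fell by 1.23 and signal peptidase subunit 2 (LOC107999530), part of the enzyme that removes the signal sequence, by 1.11. Subunits of the oligosaccharyltransferase, which adds N-glycans to the entering chain, fell by 1.38 (LOC107996006) and 1.20 (LOC107997661); both were chosen after their values were seen. Scaled by library totals alone, the single genes named here still fell, but the groups turned, with 13 higher and 8 lower in protein export and 97 higher and 23 lower in ER processing. The summed FPKM of 15 gland marker genes, royal jelly proteins among them, is not scaled for composition. It was between 210604 and 213717 in non-pollen and between 3459 and 5162 in pear. The share of counts of the ER processing group, also unscaled, went the other way, from 3.16% in non-pollen to 4.21% in pear. After TMM scaling, 8 of the 11 tested gland markers were lower and 3 higher. The part of gland cells in the ER result was not tested.

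Genes of translation followed the same direction by smaller amounts. Of 76 cytosolic ribosomal protein genes 44 were lower and 3 higher in pear (median log2 fold change -0.17), and of 46 genes of aminoacyl-tRNA synthesis 27 were lower and 0 higher (median -0.21). DESeq2 gave the same counts for the latter, and at an unadjusted p under 0.05 edgeR's test counted 29 lower and 1 higher. Alanine-tRNA ligase (LOC108004192), which charges tRNA with alanine, had 80.1, 84.5 and 80.5 CPM in non-pollen and 33.0, 34.2 and 30.4 CPM in pear. Leucine-tRNA ligase (LOC107994969) fell by 1.13 on the log2 scale (SE 0.0481). The 68 mitochondrial ribosomal protein genes did not share the trend, with 11 higher and 12 lower (59 and 0 by library totals). With library totals as the only scaling 67 cytosolic ribosomal genes and 31 genes of tRNA charging were higher and only 2 and 6 lower, so the direction of both groups depends on the scaling. The 2 ligases named here fell under every alternative.

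Genes of fatty acid and hydrocarbon synthesis parted within families. Of 26 tested members 11 fell and 9 rose, 6 and 2 of them by at least 2-fold (6 lower and 13 higher by library totals). Elongases lengthen fatty acids, and members of this family moved most in both directions. The elongase 6-like gene LOC107995792 had 21.7, 23.6 and 22.5 CPM in non-pollen and 0.126, 0.235 and 0.257 CPM in pear (log2 fold change -6.76, SE 0.186, adjusted p = 1.77e-16), and its relative LOC108001947 fell by 6.41. The elongase LOC108000343 rose instead, from 61.3, 63.4 and 64.1 CPM to 158, 158 and 163 CPM (log2 fold change 1.34, SE 0.044). It overlaps the elongase 7-like gene LOC108000342 on the opposite strand, named here after its values were seen, which rose by 0.68, and reads of the pair cannot be told apart if counting did not use strand.

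Fatty acyl-CoA reductases make the alcohols of waxes and pheromones, and 3 of them lie side by side on scaffold NW_016019297.1. LOC107998959 (959682 to 982465, minus strand) went from 74.2, 70.7 and 71.8 CPM in non-pollen to 9.05, 8.28 and 10.4 CPM in pear, and LOC107998963 (988407 to 994649, plus strand) fell by 2.16 on the log2 scale. Their neighbour LOC107998960 (997043 to 1003486, plus strand) rose by 0.75 (SE 0.0466, adjusted p = 5.44e-11). On another scaffold LOC108003267 rose from 51.5, 50.0 and 46.6 CPM to 125, 122 and 124 CPM, and LOC108003266 rose by 0.98. The acyl-CoA Delta(11) desaturase-like gene LOC108000092, of a family that places double bonds in fatty acyl chains, fell from 287, 266 and 259 CPM to 44.4, 45.0 and 38.4 CPM. The groups did not overlap for any of these genes.

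In the peroxisome, where very long fatty acids are shortened and ether lipids begin, 32 of 74 tested genes were lower and 19 higher (41 higher and 10 lower by library totals). The synthase of ether lipids, alkyldihydroxyacetonephosphate synthase (LOC107992766), had 88.1, 80.8 and 84.6 CPM in non-pollen and 26.3, 24.3 and 24.4 CPM in pear. The membrane protein PMP34 (LOC107994880), named after its values were seen, fell by 1.52 and acyl-CoA oxidase 3-like (LOC107994105) by 1.24 on the log2 scale. The lysosome group was close to even, with 29 lower and 25 higher of 91. Its alpha-mannosidase (LOC107996108), which trims sugars from glycoproteins, nevertheless went from 297, 273 and 276 CPM to 19.2, 19.8 and 22.1 CPM.

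Cytochrome P450s, oxidases of hormones, lipids and foreign compounds, were even in number, with 9 higher and 9 lower of 30 tested. The P450 6B1-like gene LOC108003970 had 199, 184 and 198 CPM in non-pollen and 11.2, 12.9 and 12.3 CPM in pear (log2 fold change -3.997, SE 0.0592). Its neighbour on scaffold NW_016017678.1, the 6a14-like gene LOC108003969, fell by 3.10. P450 4g15 (LOC108000423) rose from 0.257, 0.574 and 1.07 CPM to 2.22, 3.1 and 2.66 CPM, a rise from low counts. Enzymes of the CYP4G family take part in making cuticular hydrocarbons in insects.

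Genes that release energy from sugar were higher in pear. Of 51 tested genes of glycolysis and gluconeogenesis 31 rose and 4 fell (median log2 fold change 0.32), of 36 in the citrate cycle 28 rose and 3 fell (median 0.30), and of 88 in oxidative phosphorylation 48 rose and 11 fell (median 0.23). Hexokinase-1-like LOC107999784, the entry enzyme of glycolysis, had 173, 173 and 179 CPM in non-pollen and 291, 291 and 308 CPM in pear (log2 fold change 0.76, SE 0.0395, adjusted p = 3.78e-12). Phosphofructokinase (LOC108003046), its main control step and named after its values were seen, had 180, 147 and 188 CPM against 304, 266 and 268 CPM. Fructose-bisphosphate aldolase (LOC107994885), which splits a sugar phosphate, was at a mean FPKM of 1290 ± 7.66 in non-pollen and 2762 ± 13.1 in pear and rose by 0.55 on the log2 scale. L-lactate dehydrogenase-like LOC108001542, which regenerates NAD+ without oxygen, rose by 0.72.

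In the mitochondrion, 2-oxoglutarate dehydrogenase (LOC108003022) had 692, 666 and 662 CPM in non-pollen and 1075, 1090 and 1094 CPM in pear. The Rieske protein of complex III (LOC107993480) rose by 0.68 on the log2 scale (SE 0.0354). Succinate dehydrogenase belongs to both the citrate cycle and the respiratory chain, and its subunits parted. A flavoprotein subunit gene, LOC108000164, fell from 53.9, 55.1 and 53.6 CPM to 19.5, 24.5 and 22.1 CPM. The iron-sulfur subunit gene LOC107998211, named after its values were seen, rose from 327, 301 and 298 CPM to 478, 464 and 456 CPM.

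Sugar transporters showed no common direction, with 9 higher and 7 lower of 24 tested. Tret1-2 (LOC107998747), a trehalose carrier, rose by 0.79 on the log2 scale. Tret1-like LOC107996289, the group's most abundant member at a mean FPKM of 267.9 ± 7.8 in non-pollen and 178 ± 2.64 in pear, fell by 1.13. That gene spans the chymotrypsin inhibitor-like gene LOC107996293 described above, on the opposite strand of scaffold NW_016019075.1, so reads of the inhibitor could enter its count if strand was not used.

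Most muscle genes rose. Of 33 tested sarcomere genes 24 were higher and 4 lower in pear (median log2 fold change 0.50), 2 and 3 of them by at least 2-fold, and 15 of 23 tested muscle markers were higher. Myosin heavy chain (LOC107999930), the motor of the thick filament, had 10784, 9998 and 10422 CPM in non-pollen and 15031, 15261 and 16283 CPM in pear (log2 fold change 0.58, SE 0.0464, adjusted p = 2.69e-09). A fragment described as myosin heavy chain-like, LOC107995435, rose by 1.17 and titin (LOC107993146) by 0.50. Troponin C-like LOC107998833, a calcium sensor of the thin filament, went the other way, from 66.7, 56.2 and 65.7 CPM to 18.6, 20.3 and 20.1 CPM. The deepest fall was that of the titin homolog LOC108000987, at 17.7, 16.9 and 18.6 CPM in non-pollen and 0.524, 0.924 and 1.21 CPM in pear. The summed FPKM of the 24 muscle markers was between 10428 and 10692 in non-pollen and between 22959 and 23966 in pear. Unlike the log2 fold changes above, these sums are not scaled for composition. The part of muscle in the rise of energy genes was not tested.

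Genes of the body surface were divided. Of 26 tested cuticle and chitin genes 9 rose and 9 fell. Larval cuticle protein LCP-17-like LOC107995210, a chitin-associated structural protein, had 352, 324 and 350 CPM in non-pollen and 648, 662 and 709 CPM in pear. Probable chitinase 3 (LOC107995941), of an enzyme family that cleaves chitin, rose from 85.0, 76.5 and 86.1 CPM to 182, 182 and 197 CPM (log2 fold change 1.18, SE 0.051, adjusted p = 2.16e-13). Yellow-like LOC107999779, of a family tied to pigment in flies and related to the royal jelly proteins, had a mean FPKM of 789 ± 7.43 in non-pollen and 2107 ± 47.3 in pear (SD, n = 3 each). These FPKM are not scaled for composition. After TMM scaling, 4 of 12 tested laccase, yellow and tyrosine enzyme genes rose and 6 fell (6 higher and 2 lower by library totals). The largest rise among the 12 was 0.87 on the log2 scale. The pupal cuticle protein-like gene LOC108002602 fell by 2.76 and the laccase LOC108001912 (described as laccase-5-like), from oxidases that harden cuticle, by 2.88 on the log2 scale.

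Some enzymes that break down amino acids were among the 15 largest rises under the naming rule, although the pathways were not higher as a whole: in KEGG tyrosine metabolism 11 of 32 tested genes were higher and 16 lower, and in valine, leucine and isoleucine degradation 8 of 39 were higher and 15 lower. Tyrosine aminotransferase (LOC107999788), the first step of tyrosine breakdown, had 5.48, 4.77 and 7.19 CPM in non-pollen and 11.7, 14.1 and 14.5 CPM in pear (log2 fold change 1.21, SE 0.15). The next enzyme, 4-hydroxyphenylpyruvate dioxygenase, is listed as LOC107995737, which rose by 1.33, and LOC107998246, named after its values were seen, which rose by 1.07. Cysteine dioxygenase (LOC107998788), which opens the breakdown of cysteine, rose from 3.05, 4.2 and 4.24 CPM to 10.2, 10.9 and 11.6 CPM. The alpha-tocopherol transfer protein (LOC107994999), of a family of lipid carriers, rose from 11.5, 14.6 and 12.7 CPM to 37.5, 37.4 and 41.5 CPM.

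Immune genes moved in both directions. Antimicrobial peptides kill microbes directly, and of the 8 tested 4 were lower and 2 higher in pear (3 and 3 by library totals), while recognition and signalling genes were more often higher, with 14 higher and 3 lower of 24 tested (median log2 fold change 0.24). Defensin-1 (LOC107993803), a peptide also found in royal jelly, had 1446, 1358 and 1351 CPM in non-pollen and 119, 122 and 131 CPM in pear (log2 fold change -3.48, SE 0.0456, adjusted p = 1.28e-21). Hymenoptaecin (LOC107993492) fell by 1.04 from 239, 232 and 221 CPM. Apidaecin (LOC108000468) rose from 127, 116 and 115 CPM to 272, 276 and 286 CPM, so these peptides did not share a direction. Peptidoglycan recognition proteins bind bacterial walls, and the neighbouring genes LOC108004046 and LOC108004045 rose by 1.17 and 1.62. A scavenger receptor (LOC107998401), of a family of lipid and particle receptors, rose by 1.10. The serine protease inhibitor 3-like gene LOC107998380 had 1.97, 1.54 and 1.89 CPM in non-pollen and 6.38, 5.72 and 7.25 CPM in pear.

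**Figure D3:**
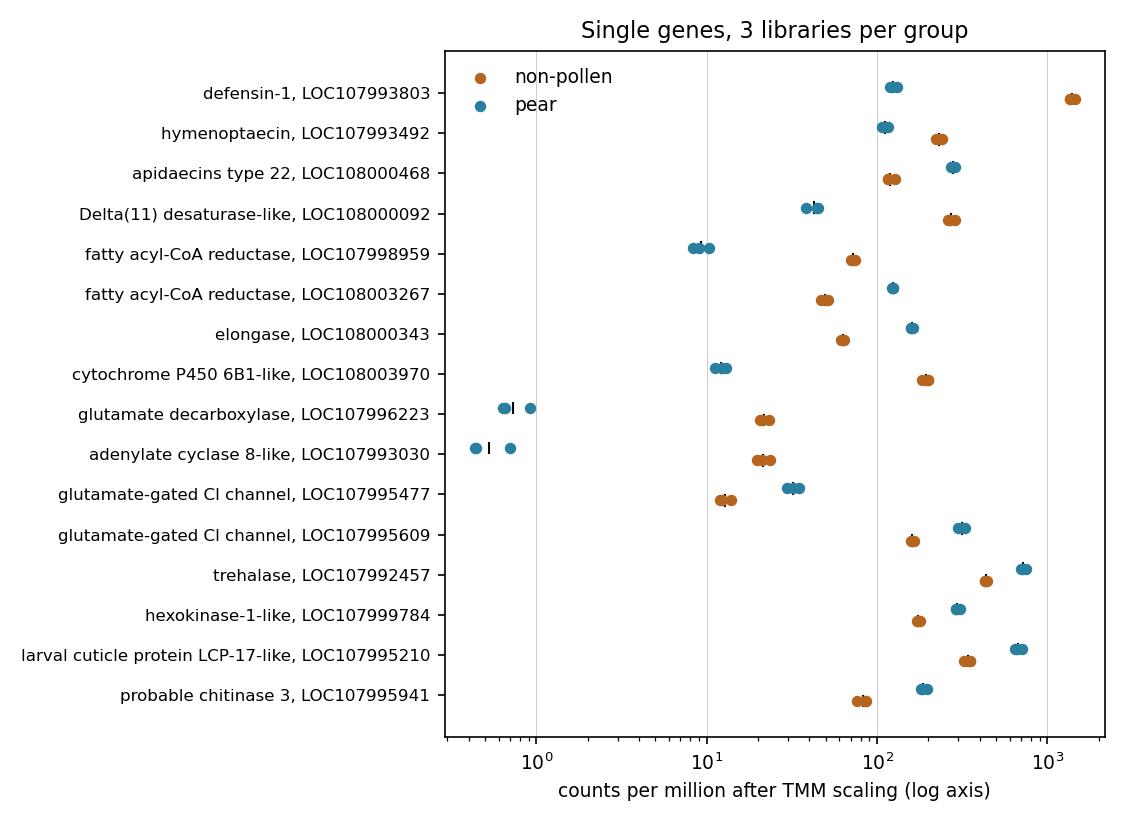
Levels of 16 genes in CPM after TMM scaling (log axis); each point is 1 library, 3 per group, and the black bar is the group mean. Defensin-1 and hymenoptaecin were lower in pear and apidaecin higher, and the fatty acyl-CoA reductases LOC107998959 and LOC108003267 moved in opposite directions with no overlap between groups.

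More genes of light detection and of nerve cells were lower than higher in pear, while several receptors were higher. Of 18 tested genes of opsins and phototransduction 11 fell and 4 rose, with 9 falls of at least 2-fold (9 lower and 7 higher by library totals). The blue-sensitive opsin (LOC107999889) had 17.8, 14.4 and 20.6 CPM in non-pollen and 0.307, 0.996 and 0.771 CPM in pear (log2 fold change -4.66, SE 0.246, adjusted p = 4.75e-12). The summed FPKM of 11 photoreceptor markers was between 408.4 and 438.8 in non-pollen and between 23.2 and 29.4 in pear. All 8 of the tested markers were lower and none was at 0 in every library. The labels name no eye tissue, and the part of this signal in other results was not tested.

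Neuropeptides are short messengers cut from precursors, and 8 of 14 tested precursors fell by at least 2-fold (median log2 fold change of the 14, -1.64). Diuretic hormone 44 (LOC108001517), a regulator of water balance and feeding in flies, had 4.88, 6.4 and 3.66 CPM in non-pollen and 0.542, 0.869 and 0.624 CPM in pear. Prohormone-1 (LOC107995312), named after its values were seen, fell by 2.57 on the log2 scale. Among the 3 that rose were allatotropin-like LOC108001171, a peptide that stimulates juvenile hormone synthesis in moths, and the PBAN-type precursor LOC107994116. Allatotropin rose from 1.17, 0.851 and 1.09 CPM to 2.17, 1.69 and 1.5 CPM, and the PBAN-type precursor from 0.97, 1.26 and 2.2 CPM to 1.88, 2.63 and 3.49 CPM. The groups overlapped for the PBAN-type precursor, and both rises rested on few libraries: the adjusted p of allatotropin went from 0.0252 to 0.103 without non-pollen replicate 2 and to 0.117 without pear replicate 1. That of the PBAN-type precursor went from 0.0285 to between 0.0557 and 0.174 without non-pollen replicate 1 or 2 or pear replicate 2 or 3.

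Of 16 tested genes of transmitter supply and transport 8 were lower and 5 higher in pear (median log2 fold change -0.62). By library totals 8 were lower and 6 higher (median -0.09). Among the 8 members that passed a filter at an FPKM of at least 5, the direction turned, with 5 higher and 2 lower (median 0.23). The largest rise was 0.59, of the GABA transporter-like gene LOC107995207. Glutamate decarboxylase (LOC107996223), which makes GABA, had 20.5, 23.3 and 21.2 CPM in non-pollen and 0.65, 0.634 and 0.918 CPM in pear (log2 fold change -4.88, SE 0.158, adjusted p = 2.51e-15). A GABA transporter (LOC107993519) fell by 3.94, histidine decarboxylase (LOC108003560), which makes the photoreceptor transmitter histamine, by 3.59, and tryptophan hydroxylase (LOC108003440), which opens serotonin synthesis, by 2.84 on the log2 scale. Of 18 tested genes of synaptic vesicles and active zones 15 were lower and 2 higher (median -0.72), which became 8 lower and 4 higher by library totals. Neuroligin-1-like LOC108002125, an adhesion protein of the synapse, fell from 32.4, 32.7 and 30.8 CPM to 6.49, 6.1 and 7.42 CPM. SNAP-25 (LOC107997812), a fusion protein of vesicles, rose by 0.18 instead. A gene described as the vesicle protein SV2A (LOC108002484) is not among these 18 and was named after its values were seen. It fell from 232, 206 and 212 CPM to 4.68, 5.29 and 6.08 CPM, while the deepest fall among the 18 was 2.26 on the log2 scale. All 13 tested neuron markers were lower after TMM scaling, whereas their summed FPKM was between 166.3 and 174.3 in non-pollen and between 171.7 and 185.6 in pear, so the ranges of the unscaled sums overlapped.

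Receptors and channels that receive these signals showed more rises. Of 27 tested receptors for acetylcholine, GABA and glutamate 13 rose and 7 fell, of 15 amine and peptide receptors 8 rose and 3 fell, and of 39 ion channels 19 rose and 9 fell. Glutamate-gated chloride channels inhibit insect neurons and muscle. LOC107995477 rose from 12.3, 12 and 13.9 CPM to 32, 29.7 and 34.6 CPM, and LOC107995609, of the same description, from 165, 161 and 157 CPM to 297, 320 and 329 CPM. The kainate-type glutamate receptor LOC108002045, named after its values were seen, rose by 0.77, octopamine receptor beta-2R-like LOC107995243 by 0.67 and FMRFamide receptor-like LOC107997138 by 0.67 on the log2 scale. A partial gene of the muscle calcium channel (LOC108000920) rose from 3.68, 4.24 and 3.95 CPM to 7.97, 10.8 and 9.84 CPM. The delta-1-like glutamate receptor LOC107994104 fell by 2.12, and it overlaps the acyl-CoA oxidase gene LOC107994105 on the opposite strand.

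Enzymes of second messengers, which carry receptor signals inside cells, included both small rises and deep falls. Of 40 tested 18 rose and 12 fell, 3 and 6 of them by at least 2-fold. Adenylate cyclase 8-like LOC107993030, which makes cyclic AMP, had 21.1, 19.6 and 23.7 CPM in non-pollen and 0.705, 0.435 and 0.441 CPM in pear. The phospholipase C gene LOC107995208 fell by 4.64 and the head-specific guanylate cyclase LOC107993816, named after its values were seen, by 1.85 on the log2 scale.

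Receptors of smell and taste were at low levels. Of 115 odorant receptor genes only 16 passed the filter, and 5 were lower and 2 higher in pear (3 lower and 8 higher by library totals). Receptor 56a-like LOC108000715 fell from 14.4, 17.1 and 16.1 CPM to 5.02, 5.72 and 3.84 CPM, and receptor 4-like LOC107996764 rose by 0.73. The 5 tested taste receptors split into 2 higher, 1 lower and 2 not called. The sugar receptor 64f-like LOC107997799 had 3.05, 1.79 and 3.17 CPM in non-pollen and 4.17, 4.44 and 5.34 CPM in pear (log2 fold change 0.81, SE 0.232, adjusted p = 0.00654). Odorant receptors hold close copies, which can share reads.

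Regulators of gene expression and growth were more often higher. Of 38 tested homeobox genes 19 rose and 5 fell (median log2 fold change 0.32), and of 35 genes of hormone and insulin signalling 17 rose and 6 fell. Among the mouthpart genes, Sex combs reduced (LOC108000243) rose by 0.66 and proboscipedia (LOC108000244) by 0.56. Deformed (LOC108000493) fell by 0.30 after TMM scaling but rose by 0.23 with library totals, by 0.24 on FPKM plus 1 and by 0.45 on TPM plus 1. Homeobox protein cut (LOC107999100), a factor of sensory organ identity in flies, rose from 2.34, 4.81 and 3.91 CPM to 7.15, 8.35 and 7.07 CPM. B-H2-like LOC107992539, related to the Bar factors of the fly eye and sense organs, fell from 119, 115 and 117 CPM to 26.0, 26.0 and 28.4 CPM. The insulin-like receptor LOC108002859 rose by 0.81, and the nuclear receptor LOC108003044, of a family known from brain and eye, fell by 2.00 on the log2 scale.

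After TMM scaling, several groups of general cell upkeep held fewer calls than the background of 53.7%. In the spliceosome 38.4% of 125 tested genes were called (35 higher and 13 lower), and among cyclins and mitotic kinases 37.14% of 35. In nuclear transport 40.69% of 145 were called (30 lower and 29 higher, and 4 lower and 121 higher by library totals). In the proteasome 47.73% of 44 were called (42 higher and 0 lower by library totals). With library totals 7389 of all 9081 tested genes were called. The place of nuclear transport and the proteasome below the background therefore depends on the scaling. No gene of the spliceosome or the mitotic group changed by 2-fold, while 3 of nuclear transport fell by at least that much, the deepest by 4.52 on the log2 scale. Heat shock proteins and chaperonins were above the background of 53.7%, with 59.32% called, 19 higher and 16 lower of 59. Of these, 3 fell by at least 2-fold, the deepest by 4.33 on the log2 scale, and 0 rose by as much. Antioxidant enzymes had 9 higher and 2 lower of 23, and none reached 2-fold. Of the cilium group 12 of 47 were lower and 9 higher (1 lower and 28 higher by library totals).

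**Figure D4:**
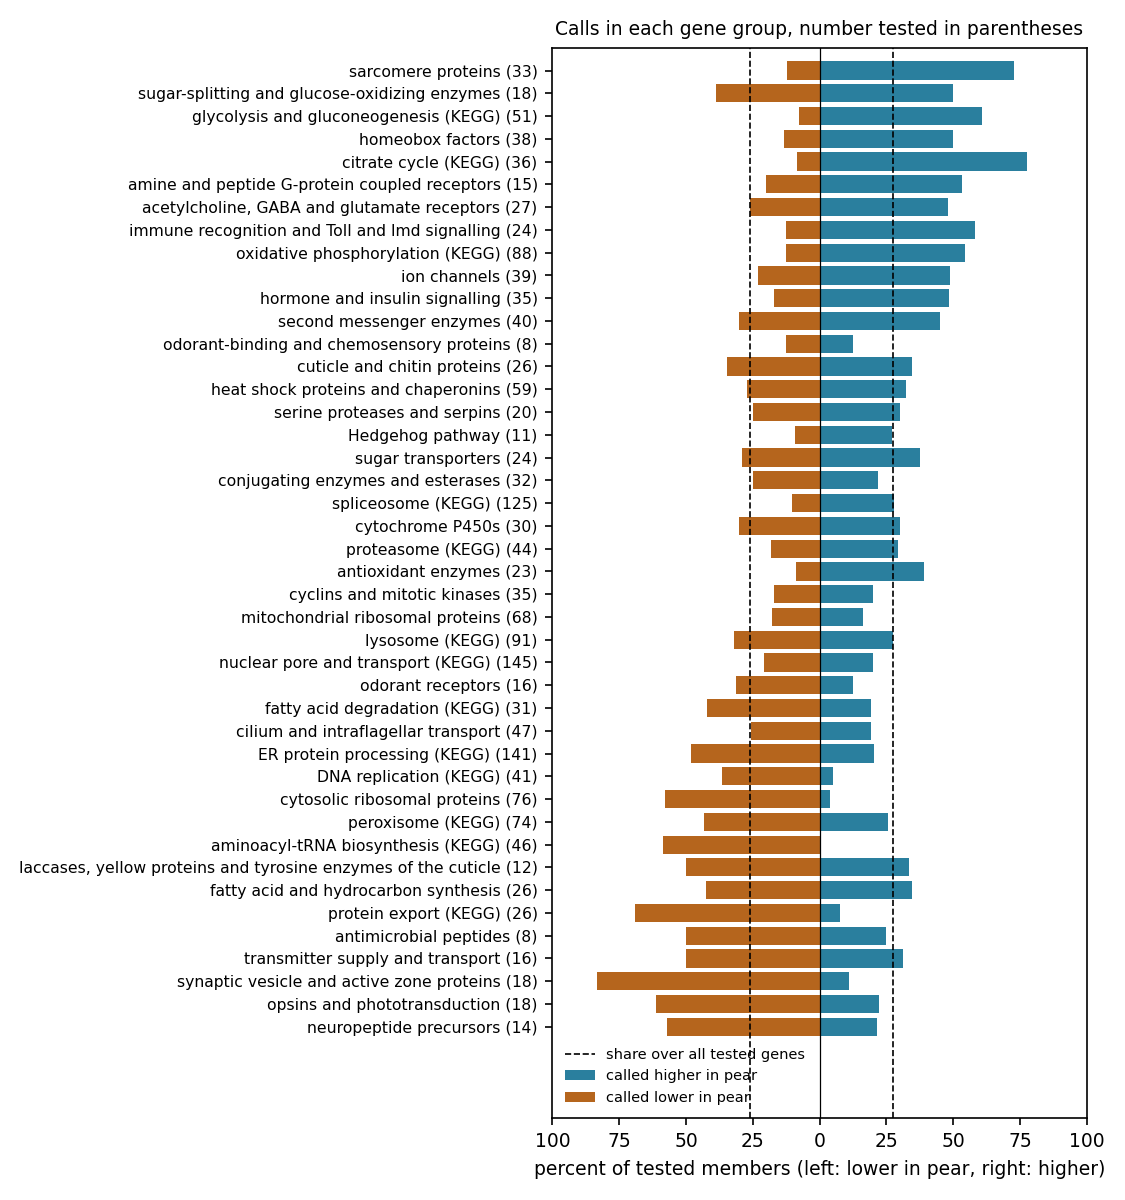
Percent of the tested members of each gene group that were called lower (left) or higher (right) in pear, with the number tested in parentheses and groups of at least 8 tested genes ordered by median log2 fold change, royal jelly proteins (median -6.10) not drawn; dashed lines mark 26.2% lower and 27.5% higher over all tested genes. The 33 sarcomere genes head the order, with 24 higher, and the 14 neuropeptide precursors are last of the groups drawn, with 8 lower.

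Across the annotation of the deposited table, 118 KEGG pathways were ordered by their median log2 fold change. Lowest were biosynthesis of unsaturated fatty acids (median -0.42, 10 of 19 tested genes lower), N-glycan biosynthesis (-0.40, 29 of 44 lower), terpenoid backbone biosynthesis (-0.40, 17 of 27 lower) and sphingolipid metabolism (-0.39, 13 of 20 lower). Highest were calcium signaling (0.33, 6 of 12 higher), glycolysis (0.32) and the citrate cycle (0.30). Of 543 GO terms, the lowest was defense response to Gram-positive bacterium (median -0.94, 11 of 18 lower), followed by defense response to fungus (-0.42, 8 of 16 lower). Related terms were close to even: defense response to Gram-negative bacterium (median -0.003, 15 higher and 14 lower of 44) and innate immune response (0.074, 9 higher and 9 lower of 34). The M band, the midline of the sarcomere, was highest (0.55), and all 15 of its tested genes rose, as did 14 of 15 genes of myofibril assembly. The medians are relative to the TMM-scaled median gene and were not recomputed with library totals, which moved the median gene to 0.53. Most of the low medians named here are smaller in size than that, so their direction may depend on the scaling. These orders are descriptions of the lists, which share members, and the KEGG column assigns some genes to pathways that their descriptions do not name.

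Few genes rose strongly. The 6 called genes with a log2 rise of at least 2 were chosen after their values were seen. The only one above 3 was LOC108001334, an uncharacterized protein, which had no count in 2 non-pollen libraries, 0.194 CPM in the third and 7.37, 6.23 and 6.55 CPM in the pear libraries. The ciliary dynein beta chain-like gene LOC107999984, a motor of moving cilia, rose from 13.2, 9.29 and 9.9 CPM to 50.1, 46.8 and 47.8 CPM (log2 fold change 2.17, SE 0.106). Futsch-like LOC108002701, a microtubule-binding protein first known from fly neurons, was not one of these 6 and rose by 1.40. The rest of the 6 were P450 4g15 (described above) and the uncharacterized genes LOC107993362 (2.38), LOC107994982 (2.16) and LOC107994811 (2.12). The last was at 4.99 CPM in 1 non-pollen library and 0 in the other 2, and neither it nor LOC107994982 passed the threshold in DESeq2 (adjusted p = 0.572 and 0.192).

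Some genes had counts in every library of one group and none in the other. With at least 10 counts in each library of the group, 23 genes were seen in non-pollen only and 3 in pear only; 0 counts summed over a group are compatible with up to 3. The 3 in pear only, LOC107999285, LOC107999687 and LOC114577151, carry no description. Among the 23, chosen after their values were seen, neuropeptide-like 1 (LOC108004407) had 32, 77 and 105 counts and the synaptic vesicular amine transporter (LOC107997963), which loads amines into vesicles, 14, 54 and 37. Methyl farnesoate epoxidase-like LOC107999236, of the enzyme type that completes juvenile hormone, had 12, 32 and 18 counts. Dirigent protein 10-like LOC107993589 had 88, 117 and 118 counts and lies close to FAM71B-like LOC107993596 on scaffold NW_016018156.1. Genes without a usable description made up 1821 of those tested, of which 566 were higher and 424 lower.

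The pear libraries were also set against the rapeseed libraries in a fit of all 9, in which 1194 of 9259 genes were called (12.9%, edgeR's quasi-likelihood test), far fewer than against non-pollen. Of the 15 largest falls against non-pollen 11 were called in this contrast, 6 lower and 5 higher in pear than in rapeseed. Of the 15 largest rises 7 were called, 4 of them higher in pear. These genes were chosen on the same pear libraries, so the values are descriptions. Hymenoptaecin (LOC107993492) was higher in pear than in rapeseed by 2.74 on the log2 scale and apidaecin (LOC108000468) by 2.13. Laccase-5-like LOC108001912 was lower in pear than in rapeseed (log2 difference -5.29), as were elongase 6-like LOC107995792 (-3.57) and phospholipase B1-like LOC107999468 (-3.14). The royal jelly genes LOC107997172 and LOC107997171 were higher in pear than in rapeseed, by 1.40 and 1.55. Values near 0 stood beside these for glutamate-gated chloride channel LOC107995609 (0.02), aldolase LOC107994885 (0.02) and futsch-like LOC108002701 (0.03).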

How the data were processed

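The authors deposited 1 gene table with whole-number counts and FPKM per library. Per the labels, poly(A)-selected RNA gave strand-marking libraries, which were sequenced from both ends. Tools listed in the submitters' processing notes, without roles, are edgeR, DESeq2, StringTie (2.1.6), HISAT2 (2.2.1) and cutadapt (1.9). The genome build, the use of strand and the treatment of reads matching several genes are, in the sources used here, not given. The study's paper describes other libraries, so no design was taken from it.

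The deposited counts of the 6 libraries were tested with edgeR 4.0.16 (R 4.3.3, glmQLFit and glmQLFTest, TMM factors 0.816 to 0.842 in non-pollen and 1.18 to 1.22 in pear), with Benjamini-Hochberg adjustment over 9081 genes and a threshold of 0.05. The deposited FPKM served for the filter (at least 1 in at least 3 libraries) and for levels. On simulated counts for this comparison with 9081 genes, of which 200 were changed, 164 were recovered at a fold of 1.5 and 191 at a fold of 2. At these folds 11 and 13 unchanged genes were called. Recovery with as many changed genes as the 4879 called here, or with folds above 2, was not tested.

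Gene groups were matched on descriptions, KEGG and GO entries. The groups, their members and the tests were chosen with earlier results of these data known. Genes were named by a rule: the 15 largest rises and the 15 largest falls among called, described genes whose groups do not overlap and whose mean FPKM reaches 5 in a group; up to 4 called members of each list in each direction and its most abundant member; and the 10 genes with the largest share of counts in each group. RefSeq's gene table of AcerK_1.0 held 10607 of the identifiers and served for names only. DESeq2 1.42.0, limma 3.58.1 on log2(FPKM + 1) and log2(TPM + 1), and other scalings, filters and library sets were run as alternatives. No sequences were used here.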

Additional observations from a re-analysis of the deposited data

How the results depend on the processing

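Of 4879 called genes in the main test, the alternatives gave 7389 with library totals only, 7432 with limma on FPKM plus 1, 8094 with limma on TPM plus 1 and 781 against a fold of 1.5; DESeq2 gave 4959 and leaving out 1 library 4315 to 4830. The share of calls higher in pear moved from 51.22% to 91.83%, 91.95% and 94.72% under those 3 unit or scaling choices, to 28.94% against a fold of 1.5 and to 48.09% when royal jelly and sugar enzyme genes were taken out before TMM scaling, and was 49.98% to 51.58% without 1 library. The count at a fold of at least 2 (578) was 1289 with library totals, 1853 on TPM plus 1, 904 without a filter, 299 at an FPKM of at least 5, and 573 to 608 without 1 library. Library totals, FPKM and TPM moved the median of all genes by 0.53, 0.48 and 0.70 on the log2 scale. Deformed (LOC108000493) turned from -0.30 to 0.23, 0.24 and 0.45 under the same 3, and no other named gene reversed. The royal jelly difference was -31.73 to -31.56 percentage points without 1 library, and DESeq2 called 1391 genes for pear against rapeseed in place of 1194. With the replicate number as a block (replicate block) 4735 genes were called, and the numbers did not pair the libraries (correlations of deviations -0.0438, -0.0084 and -0.0172; in 0 of 3 cases was the same number the best match). Depth limits genes near an FPKM of 1, such as most odorant receptors.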
